A study of Mus musculus with 2 samples.

Results

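The miR-297, miR-466, miR-467 and miR-669 families are 4 groups of related miRNAs of mouse and rat, many of whose genes lie in 1 intron of Sfmbt2, a Polycomb group gene. Their members were taken from small RNA-seq of E9.5 WT hearts as every precursor entry whose mature miRBase name carries one of these numbers with any letter or arm suffix. There were 33 such entries among 620 in all, 30 of 568 in replicate 1 and 17 of 523 in replicate 2, and 14 of them were listed in both replicates. Of the 33, 26 lay inside Sfmbt2 and 7 elsewhere. The study deposited 2 libraries of hearts from C57BL/6 wild type embryos at embryonic day 9.5, with no transgene, deletion or treatment in the labels, and 1 group only. Total RNA was prepared with Trizol and sequenced as single reads of 50 nt. The labels do not say whether the replicates came from separate embryos or how many hearts were pooled. Tests between them compare only these libraries, whose differences may be technical, and cover counting error only.

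A miRNA gene is transcribed as a long RNA that folds into a hairpin, which DGCR8 with DROSHA and then DICER cut to a duplex. One strand of it, the mature miRNA, guides silencing of mRNAs that pair with its seed, bases 2 to 8, and the other strand is called the star. The Sfmbt2 intron holds many near-identical hairpins that arose by duplication, and Sfmbt2 itself is imprinted and known for its role in the trophoblast and placenta. The 5p arms of these hairpins are rich in U and G and the 3p arms in A and C.

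Below are the 13 distinct mature sequences of the members as the deposited tables give them, 5′ to 3′ with the seed in capitals, since the small differences between them decide which entries can be told apart. Members of miR-669 come first, then miR-467 and miR-466.
miR-669c-5p: aUAGUUGUguguggaugugugua
miR-669f-5p: aGUUGUGUgugcaugugcaug
miR-669l-5p: aGUUGUGUgugcauguauaug
miR-669d-5p: aCUUGUGUgugcauguauaug
miR-669b-5p: aGUUUUGUgugcaugugcaugug
miR-669e-5p: uGUCUUGUgugugcauguucau
miR-669g: uGCAUUGUauguguugacauga
miR-467b-5p: uAAGUGCCugcauguauaugc
miR-467d-3p: aUAUACAUacacacaccuacac
miR-466c-3p and miR-466o-3p: aUACAUACacgcacacauaagac
miR-466d-5p: uGUGUGCGuacauguacaug
miR-466i-5p, entries on chromosomes 1, 3, 8 and 13: uGUGUGUGugugugugugug
miR-466i-5p, entry on chromosome 5: aAGAAAGAuugcaagaac

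The 13 sequences held 12 different seeds, and only miR-669f-5p and miR-669l-5p had the same one. Counted from 1 at the 5′ end of the first-named miRNA, these differed by G17A and C18U. Over the first 21 bases miR-669f-5p differed from miR-669b-5p by G5U alone and miR-669l-5p from miR-669d-5p by G2C alone, both inside the seed. A median of 71.4% of the bases of the distinct mature sequences were U or G, compared with 54.5% for the 489 sequences of the other entries. Mostly A or C were miR-467d-3p and miR-466c-3p, with 81.8% and 78.3% of these bases, and the chromosome 5 sequence named miR-466i-5p, with 66.7%.

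Most members had identical copies of the mature sequence elsewhere in the genome. Only 3 of the 13 sequences, those of miR-669c-5p, miR-669l-5p and miR-669e-5p, had 1 place in the genome (23.1%), compared with 428 of 489 sequences of other entries (87.5%), a difference that was described and not tested. The mature sequence of miR-466c-3p lay at 15 places and those of miR-467b-5p and miR-467d-3p at 12 each, all within Sfmbt2. The 20-nt repeat named miR-466i-5p was found at 269241 places on both strands, 21 of them in Sfmbt2 on the strand of the gene. For these members a read cannot be assigned to 1 gene by its sequence.

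**Figure D1:**
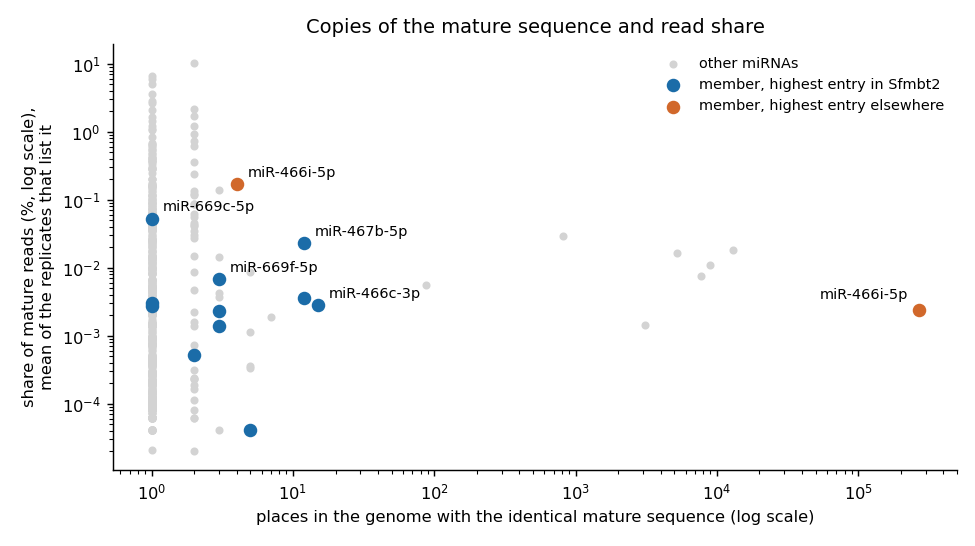
Places in the genome (mm9, both strands) with the identical mature sequence, on a log x axis, against the share of all mature reads on a log y axis, with 1 point per distinct mature sequence at its highest entry and the share averaged over the replicates that list it. miR-669c-5p had 1 place, miR-466c-3p 15 and the repeat sequence of miR-466i-5p 269241, and the highest share among members was that of the chromosome 5 entry named miR-466i-5p, with 4 places.

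The shares below are percents of all mature reads of a replicate, of which there were 4942257 and 4806179. Entries of 1 sequence at several places were kept apart unless stated. Wilson 95% intervals are given for single libraries and, like all tests here, cover counting error only. The heart label was checked by markers: all 5 cardiomyocyte miRNAs of the list (such as miR-1a and miR-133a) were listed and held 22.6% and 23.5%, those of smooth muscle 7.94% and 6.82%, endothelial miR-126a 2.9% and 2.87%, the 3 erythroid ones 0.219% and 0.273%, the 2 neural ones 0.0193% and 0.0148%, and liver miR-122 0.0421% and 0.0554%. The cardiomyocyte sum counts the same reads at more than 1 entry, since the mature sequences of miR-1a and miR-133a have 2 places each. It is thus raised beside the values of miR-126a and smooth muscle, whose sequences have 1 place each. The sequences of miR-486a and miR-9 have more than 1 place as well. Of 10 miRNAs of pluripotent, early embryonic or trophoblast cells (miR-290 to miR-295, miR-302a, miR-302b, miR-302d and miR-367), 9 were listed with 0.525% and 0.518%. These sums leave out miR-302c-3p, which had an entry but was not among the 10. The part of any of these cell types in the members' reads was not tested. In bulk heart RNA fewer cells of a type and less RNA per cell cannot be told apart.

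The families together held a small share of the heart miRNAs. Their entries had 13090 mature reads in replicate 1, or 0.265% (Wilson interval 0.26% to 0.269%), and 14223 in replicate 2, or 0.296% (0.291% to 0.301%), which gave 0.28% ± 0.022 (SD, n = 2). The entries in Sfmbt2 held 0.105% and 0.0898% of mature reads, or 0.0976% ± 0.011 (SD, n = 2). The order of the replicates turned over the 12 of these entries listed in both, with 0.0766% and 0.0892%, since entries missing from 1 table add nothing to its sum. Those elsewhere held 0.159% and 0.206%, or 0.183% ± 0.033 (SD, n = 2), so in both replicates more of the reads with these names lay outside Sfmbt2 than in it. Sfmbt2 entries had 39.8% of the members' reads in replicate 1 and 30.3% in replicate 2, or 33.3% and 30.7% over entries listed in both. This split turned on 1 entry on chromosome 5, and without it, an alternative added after the values were seen, Sfmbt2 held 89.6% and 89.3%.

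For scale, the miR-290 to miR-295 cluster of chromosome 7, an embryonic stem cell cluster with 8 entries, held 0.149% and 0.152%. Both values were above those of the 26 Sfmbt2 entries. The imprinted cluster of chromosome 12 around Mirg, which holds miR-541, had 36 entries with 8.9% and 8.39%.

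**Figure D2:**
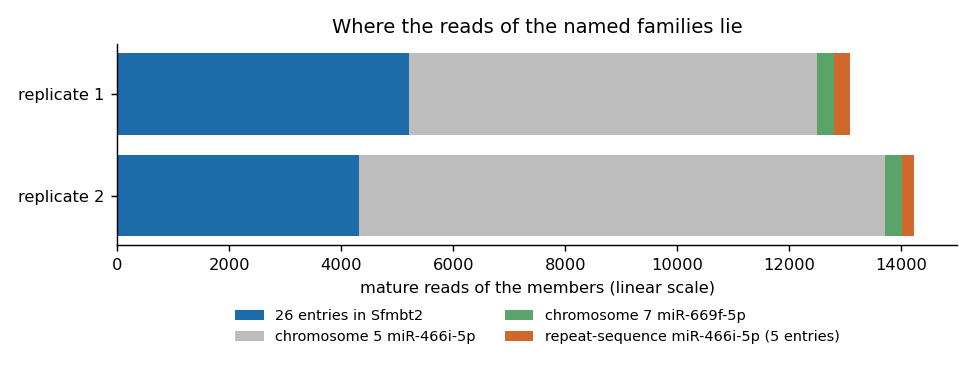
Mature reads of the 33 member entries in each replicate as stacked bars on a linear axis, divided into the 26 entries in Sfmbt2, the chromosome 5 entry, the chromosome 7 entry and the 5 entries of the repeat sequence. The chromosome 5 entry took 7275 reads in replicate 1 and 9393 in replicate 2, more than the 5211 and 4314 of all Sfmbt2 entries.

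Within Sfmbt2 (chr2:10292137-10516880, plus strand, 224.7 kb in mm9), all 26 entries lay on the strand of the gene in intron 11 of its 24-exon transcript. They spanned 46.6 kb, from 96.7 to 143.3 kb after the annotated start of the gene. The annotation has 119 miRNA genes in Sfmbt2, and 21 were overlapped by a member. By name, 10 of 31 annotated miR-669 genes, 5 of 23 miR-466 genes and 2 of 13 miR-467 genes had an entry. None of the 5 miR-297 genes in Sfmbt2 and none of 3 elsewhere did, and no entry of either table carried the name miR-297. Whether their reads fell below the reporting of the tables or were assigned to another copy cannot be told apart.

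**Figure D3:**
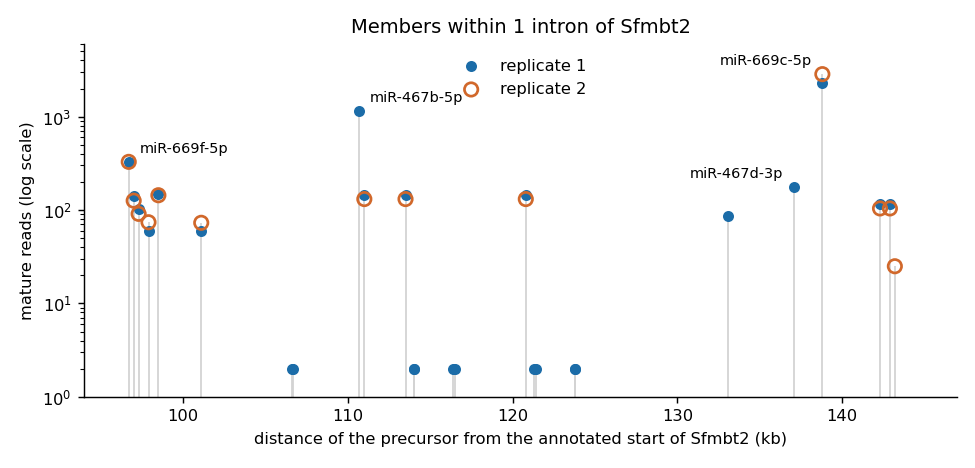
Mature reads on a log axis against the distance of the precursor from the annotated start of Sfmbt2 in kb, with filled points for replicate 1, open circles for replicate 2 and 1 grey line per entry. miR-669c-5p, 138.8 kb from the start, was the highest in both replicates with 2284 and 2852 reads, and the 10 miR-669g entries sat at 2 reads in replicate 1 only.

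Among the entries listed in the Sfmbt2 intron, miR-669c-5p (chr2:10430946-10431008, at gene Mir669c) had the most mature reads in both replicates. It had 2284 reads in replicate 1, or 0.0462% (0.0444% to 0.0481%), and 2852 in replicate 2, or 0.0593% (0.0572% to 0.0616%). The mean of 0.0528% ± 0.0093 (SD, n = 2) ranked it 136th among the 471 entries listed in both replicates. It made up 43.8% of the Sfmbt2 reads in replicate 1 and 66.1% in replicate 2, and 60.3% and 66.5% over the 12 Sfmbt2 entries listed in both. Its mature sequence had 1 place in the genome, but single reads, which may be shorter, were not searched. No star read was counted at miR-669c-5p in either replicate. The precursor is printed with the mature sequence in capitals to show that the reads fill its 5p side.
miR-669c precursor: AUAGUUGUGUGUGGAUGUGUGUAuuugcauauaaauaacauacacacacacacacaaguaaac

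The other miR-669 entries with at least 10 reads were much lower in both replicates. miR-669f-5p had 326 and 328 reads (0.0066% and 0.00682%), miR-669l-5p 149 and 144, and miR-669e-5p 142 and 126. miR-669b-5p was listed at 3 places, with 102 and 91 reads at gene Mir669b and 117 and 104 at each of Mir669m-1 and Mir669m-2. Its 3 entries have the same mature sequence. miR-669d-5p had 59 and 74 reads at 1 place and 59 and 73 at the other. miR-669g had 10 entries of 2 reads each in replicate 1, all under the floor of 3 reads (6.07e-05%). They were 5 loci with 2 overlapping entries each, which put the same sequence on the 5p side in 5 entries and on the 3p side in the other 5.

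Of the 20 miR-669 entries, 10 were listed in both replicates, and 9 of these were in Sfmbt2. The family in Sfmbt2 summed to 0.0683% and 0.0811%, or 0.0747% ± 0.009 (SD, n = 2).

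miR-467 was listed in replicate 1 only. miR-467b-5p (chr2:10402884-10402940, gene Mir467b) had 1140 reads there, or 0.0231% (0.0218% to 0.0244%), the second highest value of that replicate in Sfmbt2. miR-467d-3p (chr2:10429267-10429324, gene Mir467d) had 178 reads, or 0.0036% (0.00311% to 0.00417%). Neither had an entry in replicate 2, where miR-669f-5p was the second highest entry of Sfmbt2. Since each of the mature sequences has 12 places in Sfmbt2 and 1 entry, whether the reads were few in replicate 2 or were reported under no entry cannot be told apart. No difference between replicates was tested for these miRNAs.

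miR-467b-5p was the member with a seed close to a family known from pluripotent cells. Its bases 2 to 7 were shared with 8 other entries, among them miR-302b-3p, miR-302d-3p, miR-291a-3p, miR-294-3p and miR-295-3p, while no entry outside the families shared bases 2 to 8 with any member. The sequence of miR-302b-3p, the most abundant of the 8, is printed for comparison with that of miR-467b-5p, with bases 2 to 8 in capitals.
miR-467b-5p: uAAGUGCCugcauguauaugc
miR-302b-3p: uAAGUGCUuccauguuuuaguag
The first 7 bases were identical and the seed differed by C8U, counted from the 5′ end of miR-467b-5p. miR-302b-3p had 9949 and 9844 reads. Those of the 8 entries that were listed in replicate 1 together had 20362 reads there, 17.9 times the 1140 of miR-467b-5p. Among the 8, miR-291b-3p had a separate entry in each replicate. The match of letters is a description, and no target was measured in these libraries.

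miR-466 had 5 entries in Sfmbt2, of which 4 carried 1 mature sequence. miR-466c-3p had 144 and 131 reads at each of its 3 entries, and the equal counts cannot be taken as 3 separate amounts. miR-466o-3p, at gene Mir466b-3, has the identical mature sequence and had 86 reads in replicate 1 only. miR-466d-5p, at gene Mir466n, had 25 reads in replicate 2 only. In sum the 5 entries held 0.0105% and 0.0087%, or 0.00959% ± 0.0013 (SD, n = 2), of which the further copies are a large part. Counting each mature sequence once, over all miRNAs, gave 0.00422%. For 4 entries in Sfmbt2 (2 of miR-669b-5p, miR-466o-3p and miR-466d-5p) the name in the tables differed from that of the annotated gene at the place.

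**Figure D4:**
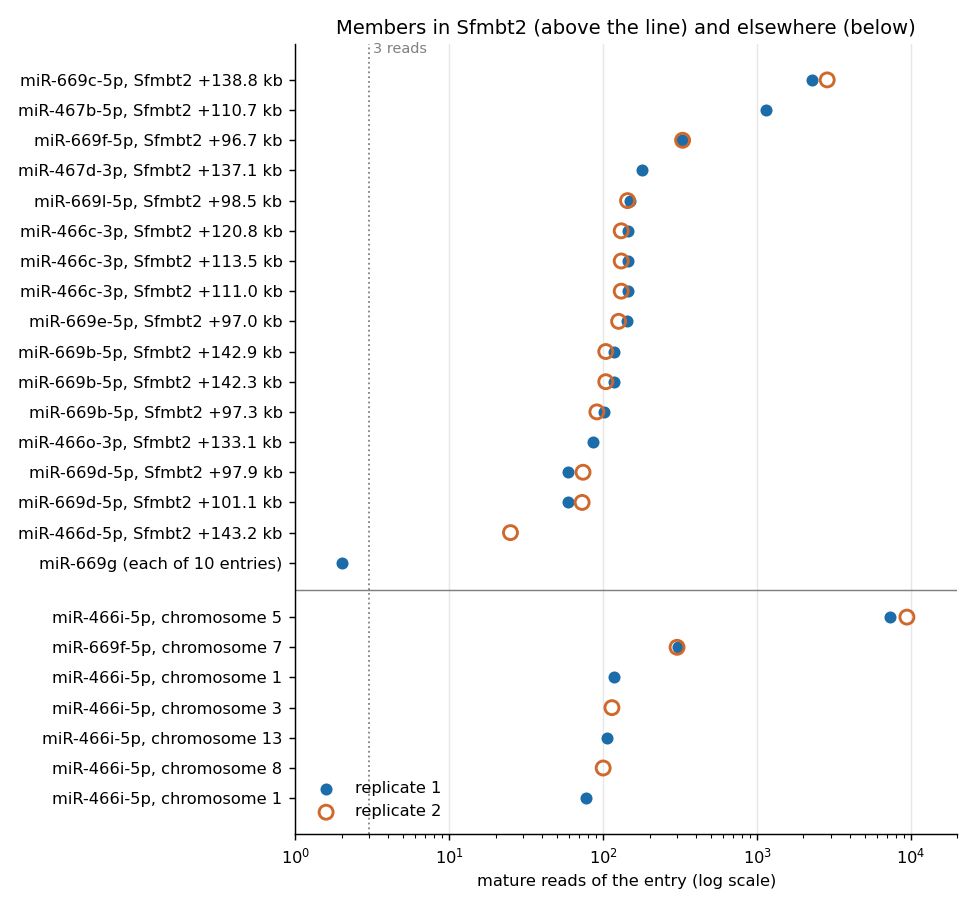
Mature reads of each member entry on a log axis, filled points for replicate 1 and open circles for replicate 2. Entries in Sfmbt2 are above the grey line, labelled with the kb from its start, and those elsewhere below. Within each part the rows are ordered by the higher read count, not by position. The 10 miR-669g entries are drawn as 1 row at 2 reads, the dotted line marks 3 reads, and rows with 1 symbol were listed in that replicate only, as miR-467b-5p with 1140 reads in replicate 1.

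The highest member of all was the entry named miR-466i-5p on chromosome 5 (chr5:26616844-26616904, plus strand, in no annotated gene). It had 7275 reads in replicate 1, or 0.147% (0.144% to 0.151%), and 9393 in replicate 2, or 0.195% (0.192% to 0.199%). With a mean of 0.171% ± 0.034 (SD, n = 2) it ranked 67th and held 55.6% and 66.0% of all member reads. Its mature sequence was not the repeat that the other miR-466i-5p entries carry. The tables give NA for its accordance with the miRBase sequence, where the other members have TRUE or STAR, and give the precursor a score below 0 and no significant folding in both replicates. Star reads numbered 0 and 1. The precursor is printed with the sequence of the reads in capitals, at its 3p end, while the repeat of U and G that resembles miR-466i lies at the other end.
chromosome 5 entry: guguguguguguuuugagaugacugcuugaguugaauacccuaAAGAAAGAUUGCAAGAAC

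The 18-nt sequence of these reads occurred at 4 places in the genome, none in Sfmbt2. Of these, 3 were in no annotated gene (chr2:69193607-69193624 minus, chr5:26616887-26616904 plus and chr5:33385099-33385116 plus). The fourth, chrM:11613-11630 on the plus strand, was bases 1 to 18 of mt-Ts2, a mitochondrial transfer RNA for serine of 59 nt. From which place the reads came cannot be told apart, and the label miR-466i-5p is used for this entry only as the name in the tables.

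The repeat sequence named miR-466i-5p was listed at 5 other places, each in 1 replicate only. Replicate 1 had 117 reads at chr1:69380770-69380863 (plus), 77 at chr1:121441825-121441896 (minus, in an exon of Epb4.1l5) and 106 at chr13:97489914-97489988 (plus). Replicate 2 had 114 at chr3:14991957-14992056 (minus) and 100 at chr8:122380908-122380955 (minus). All 5 had a score below 0, and only the first passed the folding test. The places changed from 1 replicate to the other while the read numbers per place were similar.

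The entry named miR-669f-5p on chromosome 7 had the identical mature sequence to Mir669f in Sfmbt2 and nearly the same counts, 304 and 302 reads against 326 and 328. The sequence has 3 places in the genome, the third at chr6:147347429-147347449 (minus), so the 2 entries can hold the same reads. These reads lie on the 3p side of the chromosome 7 precursor and on the 5p side at Mir669f. Star reads numbered 54 and 34 at Mir669f and 6 and 15 on chromosome 7, and the values of the 2 entries did not overlap.

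Every Sfmbt2 entry, 25 in replicate 1 and 13 in replicate 2, had a significant folding p-value in the tables, whereas 3 of 5 and 3 of 4 elsewhere did not, and among all other entries 22.5% and 23.1% did not. Scores below 0 were found for 10 of 25 Sfmbt2 entries in replicate 1, all of them miR-669g, and for 0 of 13 in replicate 2. Elsewhere they were found for 4 of 5 and 3 of 4. The corresponding shares of other entries were 25.8% and 21.9%. These counts were not tested, since entries with 1 sequence are not independent.

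The arm that held most reads differed among the members in Sfmbt2. All miR-669 entries in Sfmbt2 with at least 10 reads, miR-467b-5p and miR-466d-5p had them on the 5p arm. miR-466c, miR-466o and miR-467d had more on the 3p arm, although the tables name them by the 5p arm. Star reads were 25.7% and 28.7% of mature plus star reads for miR-466 in Sfmbt2, or 27.2% ± 2.1 (SD, n = 2), and 1.66% and 0.89% for miR-669 in Sfmbt2, or 1.28% ± 0.54 (SD, n = 2). A difference between the 2 families was not tested, and each value rests mainly on 1 sequence. miR-669c-5p, with no star read, held 2284 of 3375 and 2852 of 3896 mature reads of miR-669 in Sfmbt2. For miR-466 the same mature and star counts of miR-466c-3p enter at each of its 3 entries. All other entries had 2.45% and 2.68%.

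Star reads above 10% with at least 10 star reads were found at few members. miR-466c-3p had 44 star reads in replicate 1 (23.4%) and 56 in replicate 2 (29.9%) at each of its 3 entries. miR-466o-3p had 47 (35.3%) and miR-467d-3p 53 (22.9%), both in replicate 1. miR-669f-5p in Sfmbt2 had 54 (14.2%) in replicate 1 and 34 (9.39%) in replicate 2. In Sfmbt2 these were 6 of 25 entries in replicate 1 and 3 of 13 in replicate 2, compared with 15.2% and 16.2% of the other entries. Since 4 of the 6 entries share 1 mature sequence, this is fewer than 6 separate observations. No member listed in both replicates changed the arm with the most reads.

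**Figure D5:**
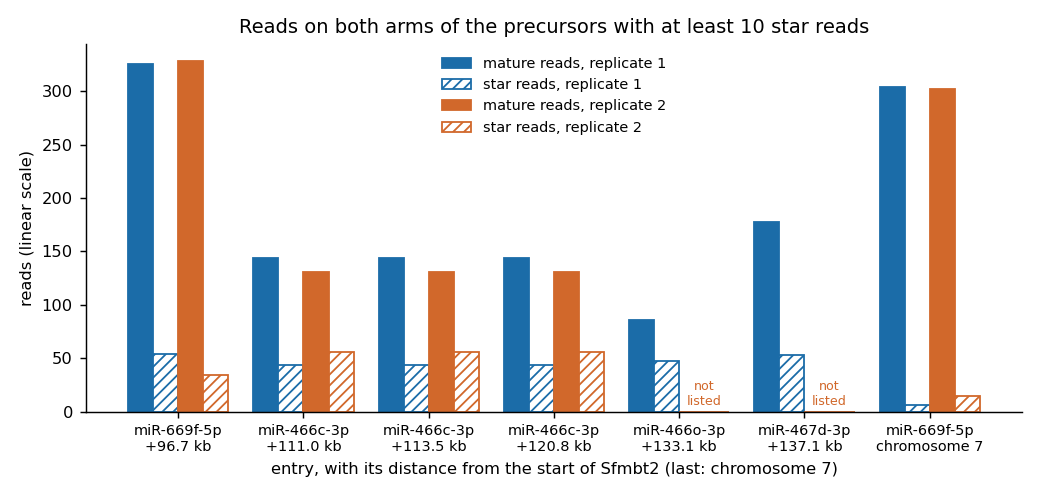
Mature reads (filled bars) and star reads (hatched bars) on a linear axis from 0 for the 7 member entries with at least 10 star reads in a replicate, blue for replicate 1 and orange for replicate 2. The 3 entries of miR-466c-3p had equal bars, with 144 mature and 44 star reads in replicate 1, and miR-466o-3p and miR-467d-3p were not listed in replicate 2.

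Many members were listed in 1 table only. Of the members 14 of 33 (42.4%) were in both tables, compared with 457 of 587 other entries (77.9%), 34 of 36 in the Mirg cluster and 6 of 8 in the miR-290 to miR-295 cluster. Of the 19 entries in 1 table only, 10 were miR-669g with 2 reads each, 5 were the repeat sequence of miR-466i-5p, and the others were miR-467b-5p, miR-467d-3p, miR-466o-3p and miR-466d-5p. This comparison was not tested, because many of these entries share a sequence.

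Between the replicates, the exact binomial test on mature reads with Benjamini-Hochberg adjustment called 177 of 431 entries of all miRNAs (41.1%), 27.6% higher in replicate 2 and 13.5% higher in replicate 1. Among the 14 members tested, with 8 distinct sequences, it called 2, both higher in replicate 2. They were the chromosome 5 entry, with a log2 ratio of 0.41 (exact binomial test, adjusted p = 5.1e-73), and miR-669c-5p, with 0.36 (exact binomial test, adjusted p = 3.1e-18). These are also the 2 members with the most reads. The other 12 had log2 ratios from -0.13 (miR-669e-5p and miR-669b-5p) to 0.37 (miR-669d-5p, exact binomial test, adjusted p = 0.28) and did not pass. The median log2 ratio was -0.05 for the members and 0.07 for all entries tested. The median size of the ratio, sign left out, was 0.13 and 0.19. The test compares 2 libraries of 1 group and says nothing of a condition. Scaled by edgeR's TMM factors or DESeq2's size factors, the same 2 members were called, while the calls higher in replicate 2 over all entries went from 119 of 177 to 86 of 178 and 78 of 176.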

How the data were processed

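Small RNA libraries of 2 replicates of E9.5 WT hearts were analysed from the tables of known miRNAs, 1 per replicate. The reads were aligned to mm9 within miRDeep2 by the authors, who deposited raw read counts of mature, loop and star sequences per precursor, without normalization. The deposited miRDeep2 score was used only to count entries below 0. Versions of miRDeep2 and miRBase and the handling of reads with several places are not given in the sources used here. Reads counted at several copies enter both a summed share and the total it is divided by, so they can move it either way.

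With positions counted from 1, each of the 1091 precursor sequences matched NCBIM37, the assembly of mm9, without a mismatch. Genes are those of GENCODE vM1. Sequences printed are from the deposited tables. The precursor of the chromosome 7 entry is not reported here. Entries were paired by an overlap of at least 50% of both precursors on 1 strand. They kept the names of the deposited tables, with the arm switched where these mark the mature sequence as STAR. The entries on chromosomes 3, 5, 7, 8 and 13 therefore keep a 5p name, although their reads lie on the 3p side of the precursor. Copies of mature sequences were exact matches on both strands, with overlapping matches merged. The members, marker lists and tests were chosen with earlier results of these data known. Named were the 10 distinct mature sequences with the highest mean share, the highest entry of each family inside and outside Sfmbt2, the 5 members with the largest log2 ratio among those with at least 100 reads in both replicates, and members with over 10% and at least 10 star reads. Other members were named to account for all of them.

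There is 1 group, so no conditions were compared. Mature reads summed over all entries were 4942257 and 4806179, totals in which a read can be counted at more than 1 entry. On these totals a count of 0 allows up to 3 reads, 6.07e-05% and 6.24e-05%. Replicates were compared by the 2-sided exact binomial test over entries present in both tables whose mature reads summed to 20 or more, with Benjamini-Hochberg adjustment at 0.05. The test was checked on simulated reads with sampling noise only, so the check does not cover further spread between libraries. Alternatives were counting each mature sequence once, all reads of the precursor, minimum reads, leaving out a replicate, and scaling by edgeR 4.0.16 and DESeq2 1.42.0 under R 4.3.3. Python 3.11.15 was used with pysam 0.24.0, scipy 1.17.1, numpy 2.4.6, matplotlib 3.10.9 and pandas 2.3.3.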

Additional observations from a re-analysis of the deposited data

Results flagged for a closer look

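Loop reads, which entered no test, were counted at the members 13 times in replicate 1 and 8 times in replicate 2. All other entries had 770 and 746. No single member entry had more than 4 loop reads, near the 3 that a count of 0 allows. In Sfmbt2 loop reads were at miR-669e-5p (3 and 4) and miR-669d-5p (2 and 1), and elsewhere at the repeat entries of miR-466i-5p.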

How the results depend on the processing

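Counting each mature sequence once, over all miRNAs, gave 0.355% for the families, 0.242% for miR-466, 0.00422% for miR-466 in Sfmbt2, 0.238% for miR-466 elsewhere, 0.0944% for miR-669, all in Sfmbt2, 0.0364% for miR-467 in replicate 1 and 2.77% of star reads in Sfmbt2. The chromosome 7 entry then has no value, since its sequence is counted in Sfmbt2. All reads of the precursor gave 0.0128% for miR-466 in Sfmbt2. Without the chromosome 5 entry, an alternative added after seeing the data, the families held 0.109%, miR-466 0.0149%, miR-466 elsewhere 0.00527%, and Sfmbt2 held 89.5% of the family reads. With at least 10 reads in both replicates 8 of the 13 distinct sequences were left, and none of miR-467, which has no value there, among entries listed in both replicates or without replicate 1. Of the other values under these alternatives, 35 moved by less than 1 SD between replicates or, for counts, less than 1.5 times, and 2 for miR-467 stayed within its Wilson interval in replicate 1.

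Leaving out a replicate gives the value of the other, with no SD, and lies within 1 SD of the mean of both by construction: 0.265% to 0.296% for the families, 30.3% to 39.8% of them in Sfmbt2, 0.164% to 0.209% for miR-466, 0.0087% to 0.0105% of it in Sfmbt2 and 0.153% to 0.2% elsewhere, 0.0744% to 0.0873% for miR-669, 0.0683% to 0.0811% of it in Sfmbt2 and 0.00615% to 0.00628% elsewhere, and 4.49% to 5.25% of star reads in Sfmbt2. The same 2 members were called between the replicates under every scaling and minimum tried. The log2 ratio of miR-669f-5p in Sfmbt2, which was not called, went from 0.05 to -0.01 with edgeR's TMM factors and -0.02 with DESeq2's size factors, and that of its chromosome 7 entry also turned negative. Among entries listed in both replicates, or with the same mature arm in both, both also added later, no mean or call changed in this sense, but the share of Sfmbt2 entries was then lower in replicate 1 (0.0766%) than in replicate 2 (0.0892%).

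No paired analysis was possible because there is 1 group of samples. Entries that share a mature sequence are not separate measurements, and further entries with the same sequence held 8.84% and 6.55% of the members' reads. An entry missing from 1 table is not a count of 0.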
